A study of Rana pirica with 9 samples.

Results

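The proteasome is the large protease that breaks down ubiquitin-tagged proteins in every cell. Its genes were examined in the brains of tadpoles of the frog Rana pirica kept with or without a predator. Members were chosen by gene symbol, as probe sets with a single annotated symbol of the psma, psmb, psmc, psmd, psme, psmf or psmg families, without psmb8. This gave 59 of 15491 probe sets, which stand for 40 of 6485 genes. Earlier results of these data were known when the choice was made.

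Arrays of 2 groups were compared. The salamander group held 3 arrays of tadpoles kept for 8 days with larval salamanders, which prey on tadpoles, and the control group held 6 arrays of tadpoles kept for the same 8 days without predators. All tadpoles were taken before hind limbs had grown, no strain or allele is named in the labels, and the RNA on an array came from 10 dissected brains combined in a tube. RNA of this frog was hybridized to a chip designed for the clawed frog Xenopus, whose gene symbols end in .L or .S for the members of a homeolog pair, that is, the copies left by a genome duplication. The deposited values are MAS5 signals on the log2 scale, each expressed against its probe set's median among the controls, so they give differences between arrays but no level, and the control median of a gene with a single probe set is 0 by construction. For a pooled tissue such as brain, fewer cells of a type and less RNA per cell cannot be told apart.

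As background, the core particle is a barrel of stacked rings. The outer rings are made of alpha subunits (psma genes), which form the gate, and the inner rings of beta subunits (psmb genes), some of which cut the protein chain. The regulatory particle sits on the end of the barrel. Its ring of ATPases (psmc genes) unfolds the substrate, and its non-ATPase subunits (psmd genes) form the lid and scaffold that bind ubiquitin and remove it. The psme genes encode other caps that open the barrel, psmf1 a protein that inhibits the core in vitro, and the psmg genes chaperones that help to build it. In neurons the proteasome turns over synaptic proteins. The psmd members psmd5, psmd9 and psmd10, are known in mammals as chaperones of regulatory particle assembly rather than as lasting subunits, and psme3ip1, which the symbol rule takes in, encodes a protein that binds the psme3 product.

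The poly-A spike-in RNAs, added as a labelling control, split the arrays into a set with high readings (salamander 1 and 2, controls 2, 3 and 4, from 1.27 to 1.69) and a set with low ones (salamander 3, controls 1, 5 and 6, from -2.25 to -1.76). Array medians lay between -0.01 and 0.01 on the log2 scale, and the mean over all genes between -0.06 and -0.02.

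No proteasome gene passed the test for a difference between tadpoles kept with salamanders and controls. Of the 40 genes, 27 had a higher mean in the salamander group and 13 a lower one, where 50% of all genes were higher, with a median difference of 0.23 on the log2 scale, where the median over all genes was -0.0002. The members' median was 0.14 without control array 5 and 0.15 without salamander array 2. Differences ran from -1.11 for the nuclear activator gene psme3 to 0.998 for the immunoproteasome subunit gene psmb9. In limma, 0 of the 40 had an adjusted p under 0.05, as in 0% of all genes, and the smallest adjusted p among them was 0.996. At an unadjusted p under 0.05 there were 0 of the 40, where 4.81% of all genes lay. A linear model without moderation also called 0, and in it psma4 alone had an unadjusted p below that limit, against 4.24% of all genes. The groups overlapped in each of the 40 genes, while 2.19% of all genes had none. Taken singly, 0 of the 59 probe sets passed limma's adjusted limit (0% of all probe sets did). Below the unadjusted limit lay 0 of them as well, against 5.15% of all probe sets (2.12% higher and 3.03% lower). Group ranges were apart in 0 of the 59, against 2.33%, the interval excluded 2-fold in 3, against 2.78%, and 41 were higher, against 50.1%.

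**Figure D1:**
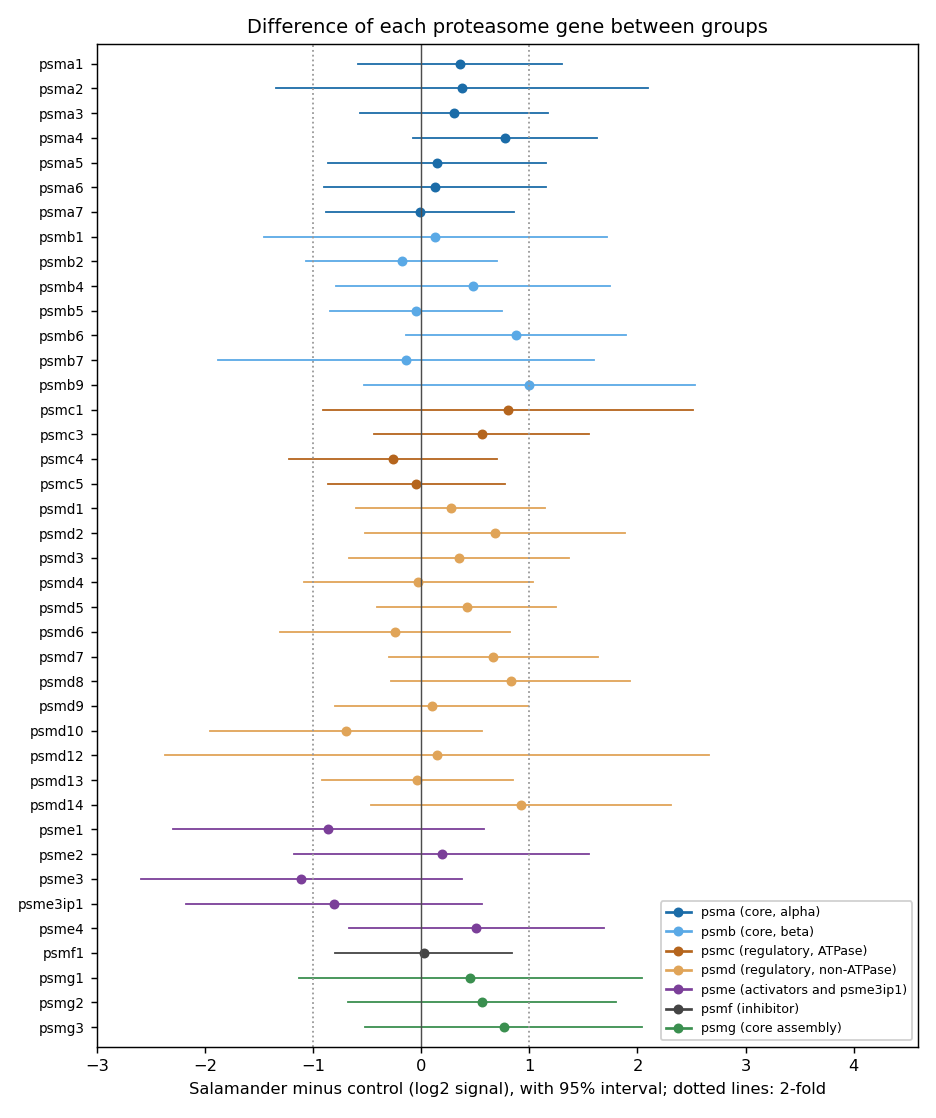
Difference of each of the 40 proteasome genes between groups on the log2 scale, salamander minus control (points), with 95% confidence intervals (lines) from limma over 3 salamander and 6 control arrays. Every interval includes 0, and 6 intervals lie within the dotted lines that mark 2-fold either way.

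How closely a difference could be bounded varied widely among the members. For 6 genes, psma7, psmb5, psmc5, psmd9, psmd13 and psmf1, the 95% interval of the gene fit lay inside 2-fold either way, which is 15% of the members against 7.96% of all genes. They include genes of the psma, psmb, psmc and psmd families and the inhibitor gene. In the fit to single probe sets, psmb5 and psmf1 stayed inside 2-fold. There psmd9 and psmd13, with 1 probe set each, ran from -0.88 to 1.07 and from -1.004 to 0.93. No probe set of psma7 or psmc5 excluded 2-fold. The count of 6 genes falls to 0 without salamander array 1 or 3, to 1 without salamander array 2 and to 3 without control array 4. The share of all genes fell as well, to 1.09% and 1.14% without salamander array 1 or 3. It was 1.23% without salamander array 2 and 4.6% without control array 4. Values of psmd13 were marked as weak, by the rounding of the deposited numbers, on 8 of 9 arrays, and those of psmd9 on 5 of 9. In contrast, psmb5 and psmf1 had 0 weak marks.

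The alpha subunits, measured for all of psma1 to psma7, had 6 of 7 means higher in the salamander group and a median difference of 0.30. That sign turned when only probe sets with at most 1 weak mark were used, with a median of -0.20 over the 5 genes left. The smallest p among all proteasome genes belonged to psma4 (one probe set, for psma4.L). On the salamander arrays it read 0.61, 1.29 and 0.64, against a control range of -0.41 to 0.76. All 3 salamander arrays were above the control median, and control array 3 lay above salamander arrays 1 and 3. The difference was 0.77 (SE 0.39, 95% interval -0.08 to 1.62), or 1.71-fold, with an adjusted p of 0.996 in limma and an unadjusted p of 0.0717. Its value was marked as weak on 0 salamander arrays and on 3 controls. Such a mark can come from the array's signal or from the control median subtracted. The second smallest p of the alpha ring was that of psma1, with 0.71, -0.08 and -0.52 on the salamander arrays and controls between -0.92 and 0.23, a difference of 0.36 (interval -0.58 to 1.30). Without salamander array 1 that difference was 0.02, since this array alone lay above the controls.

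Among the alpha subunits psma2 varied most between replicates. Its salamander arrays stood at -0.83, 1.53 and 1.29 and its controls from -1.31 to 1.93, so the salamander values lay inside the control range. Values of psma5 and psma7 were means over probe sets that pointed in opposite directions. For psma5, whose probe sets are all named for psma5.S, the differences were 0.88 (SE 0.83), 0.52 (SE 0.62) and -0.97 (SE 0.63), and their mean was 0.14. For psma7 the .L probe set was at 0.64 (SE 0.64), with 7 of 9 arrays marked as weak, and the .S probe set at -0.67 (SE 0.50), with 0 weak marks. The gene's value of -0.01 (interval -0.88 to 0.86) is thus an average of probe sets whose differences had opposite signs. Their intervals, -0.75 to 2.03 for .L and -1.75 to 0.42 for .S, overlapped. The remaining alpha genes, psma3 and psma6, were at 0.30 and 0.13.

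Of the beta subunits, psmb5, psmb6 and psmb7 carry the active sites of the standard core. The gene psmb5 encodes the chymotrypsin-like subunit and had the smallest replicate SD of the set, 0.30. Salamander arrays read -0.38, 0.07 and -0.16, against controls from -0.59 to 0.22, and the salamander values lay wholly within the control range. The difference was -0.05 (SE 0.36), with an interval from 0.557-fold to 1.68-fold.

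For psmb6, which encodes the caspase-like subunit, the salamander arrays read 0.47, 0.71 and 1.10, against controls from -1.15 to 0.50. Salamander arrays 2 and 3 were above every control, and array 1 lay just below control arrays 1 and 6. The difference was 0.88 (SE 0.47, interval -0.14 to 1.89), or 1.83-fold, with an adjusted p of 0.996 in limma, and 0 of its 9 values were marked as weak. The trypsin-like subunit gene psmb7 had salamander values of 0.70, -0.22 and -2.23 and controls from -2.02 to 0.71. Single arrays of both groups lay about as far down, control arrays 2 and 5 at -2.02 and -1.95 and salamander array 3 at -2.23. The difference was -0.14 with an interval of -1.89 to 1.60, which spans 0.271-fold to 3.03-fold.

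The gene psmb9 encodes the subunit that replaces the psmb6 product in immunoproteasomes, the form known from immune cells and from cells exposed to interferon. The salamander arrays read 0.76, 0.75 and 1.43. Control arrays fell into a lower trio, at -1.38, -1.24 and -0.98, and an upper trio, at 0.98, 1.21 and 1.31, with none between. Salamander arrays 1 and 2 lay below the whole upper trio and array 3 above it. The mean difference, 0.998 (SE 0.70, interval -0.53 to 2.53), is thus taken from a control mean, -0.02, near which no control array lay. The structural beta genes psmb1, psmb2 and psmb4 had differences of 0.13, -0.18 and 0.48.

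**Figure D2:**
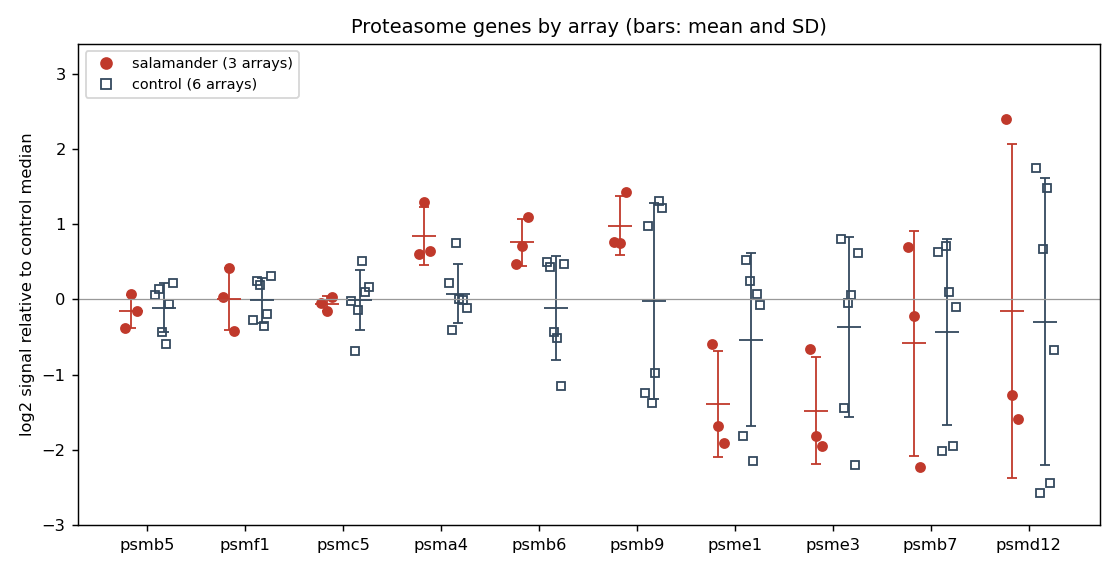
Log2 signal relative to the control median in each array for 10 proteasome genes, with salamander arrays as filled circles and control arrays as open squares, and bars for the group mean and SD. The genes psmb5, psmf1 and psmc5 have the smallest SD between replicates, those of psma4 and psmb6 overlap only in part, and psmb7 and psmd12 spread over more than 2 log2 units in either group.

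In the ATPase ring of the regulatory particle 4 genes were measured, of which psmc1 and psmc3 were higher and psmc4 and psmc5 lower in the salamander group. The salamander arrays of psmc3 read 0.51, 0.13 and 0.97 and its controls ran from -0.98 to 0.90. Its probe sets for .L and .S had nearly the same difference, 0.59 and 0.53, though their deviations from the group means correlated by -0.08. The mean difference was 0.56 (SE 0.46, interval -0.44 to 1.56). It was 0.34 without salamander array 3 and 0.36 without control array 5. For psmc1 the values were 1.42, 1.87 and -0.88 on the salamander arrays, with controls from -1.56 to 1.89. Salamander arrays 1 and 2 were high and array 3 low, and all lay within the control range. The difference of 0.80 (SE 0.78) was 1.64 without salamander array 3, 0.27 without salamander array 2 and 0.49 without salamander array 1 or control array 6. The gene psmc5, a mean of 3 probe sets, held its 3 salamander arrays between -0.15 and 0.04, inside controls from -0.68 to 0.52, and differed by -0.04 (interval -0.86 to 0.77). The fourth gene, psmc4, was at -0.26. The ATPase genes psmc2 and psmc6 were read only by probe sets that list both homeologs, outside the 59, at 0.28 and -0.40.

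Of the 13 psmd genes, 9 were higher and 4 lower in the salamander group, with a median of 0.27. The smallest p was that of psmd8, a lid subunit gene whose 3 probe sets all had a positive difference, 0.44, 1.10 and 0.93. Its probe set mean on the salamander arrays was 1.05, 1.95 and -0.38, against controls from -0.49 to 0.43. Salamander arrays 1 and 2 were above every control, and array 3 lay below all but control array 2. The difference was 0.83 (SE 0.51, interval -0.28 to 1.93), and it was 1.45 without salamander array 3 and 0.29 without salamander array 2. For psmd7, which encodes the lid partner of the deubiquitinase subunit, the salamander arrays read 0.53, 0.51 and 0.24, with controls from -1.07 to 0.64. Its difference was 0.67 (SE 0.44, interval -0.30 to 1.63). These are means of 2 probe sets. On the salamander arrays 1 of them read 0.82, 0.27 and -0.50, and the other 0.23, 0.74 and 0.99. The deubiquitinase subunit gene itself, psmd14, named here after its values were seen, had the highest difference of the regulatory particle, 0.92 (interval -0.47 to 2.31). Its salamander arrays read 1.51, 1.77 and 0.42, and its controls ran from -0.71 to 1.93. All 3 salamander arrays were above the control median, while control array 5 lay above each of them. Its .L and .S probe sets stood at 0.89 and 0.95. On salamander array 3, however, .L lay above its control median and .S, at -0.95, below every control. The gene's 0.42 there is thus an average of opposed readings. The .S probe set was marked as weak on 4 controls and 0 salamander arrays, and .L on 1 control and 0 salamander arrays. The unadjusted p of psmd14 in limma was 0.173, and it was 0.0477 without control array 5. Within the arrays of high spike-in readings it was 0.00297 (difference 2.205, 2 salamander and 3 control arrays, adjusted p 0.641 in limma). Under 0.05 lay 5.2% of all genes without control array 5 and 5.24% within the high set. Gene and settings were picked out here by their values, so these unadjusted p support no difference. Among the arrays of low spike-in readings the gene's difference had the opposite sign, -0.77. That value sets salamander array 3, whose probe sets were opposed, against 3 controls.

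The lid gene psmd12 was the most variable member of the whole set, with a replicate SD of 2.003. Its salamander arrays read 2.40, -1.27 and -1.60 and its controls ran from -2.58 to 1.75. Arrays of both groups were far up and far down, and the interval of its difference spans 0.193-fold to 6.33-fold. The other psmd genes lay between -0.70 for psmd10, whose 3 salamander arrays at -0.86, -0.92 and -0.41 were all under the control median, and 0.68 for psmd2, the scaffold subunit. The ubiquitin receptor gene psmd4 was at -0.03, and the assembly chaperone genes psmd5 and psmd9 were at 0.42 and 0.10.

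Of the genes outside core and regulatory particle, the 5 psme genes had a median difference of -0.81, which is the value of psme3ip1, and the 4 without that gene one of -0.34. Without control array 6 these medians were -0.36 and -0.13, and without control array 2 the median of the 4 was -0.17. The 3 psmg genes had a median of 0.56, which was 0.22 without salamander array 3, 0.32 without control array 6 and 0.94 without salamander array 1. Each of these genes has 1 probe set. Of 9 arrays, 2 were marked as weak for psme1, 1 for psme2, 3 for psme3, 5 for psme3ip1 and 7 for psme4. For psmg1, psmg2 and psmg3 the counts were 3, 2 and 5. Only psme2 thus had at most 1 weak mark, and its difference was positive, though not without salamander array 2. The nuclear activator gene psme3 read -0.66, -1.82 and -1.95 on the salamander arrays, against controls from -2.20 to 0.81. All 3 salamander arrays were below the control median, while control array 5 lay below each of them. The difference was -1.11 (SE 0.68, interval -2.59 to 0.37), or 0.463-fold, with an adjusted p of 0.996 in limma. Likewise psme1, a subunit of the interferon-induced activator, read -0.59, -1.68 and -1.90, against controls from -2.15 to 0.52, for a difference of -0.86 (SE 0.66). Its partner in the same ring, psme2, was at 0.19 (interval -1.18 to 1.55). Without salamander array 2, however, psme2 was at -0.39. Within the low spike-in set, where salamander array 3 stood alone, it was at -1.03. The gene psme3ip1 was at -0.81, where control array 6 read 2.57 and the remaining controls -0.51 to 0.20, and psme4, the large nuclear activator, was at 0.51.

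The inhibitor gene psmf1 was among the steadiest members, with a replicate SD of 0.34. On the salamander arrays it read 0.03, 0.41 and -0.42 and its controls ran from -0.36 to 0.31, and salamander arrays 2 and 3 lay just outside that range on opposite sides, with a difference of 0.02 (interval -0.80 to 0.84). The core assembly factors psmg1, psmg2 and psmg3 had differences of 0.45, 0.56 and 0.76. Without salamander array 3, psmg1 was at -0.19 and psmg2 at 0.22. Without control array 6, psmg2 was at 0.22, and psmg1 was at 0.21 without control array 3, 0.20 without control array 5, 0.72 without control array 1 and 0.94 without salamander array 1. For psmg3 the salamander arrays read -0.58, 1.42 and 1.75, with controls from -0.63 to 1.34, and the difference was 0.32 without salamander array 3, 0.48 without salamander array 2 and 1.48 without salamander array 1. For psmg2 they read -0.31, -0.12 and 0.80, with controls from -2.11 to 0.21. In neither gene did all 3 salamander arrays lie on the same side of the control median.

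Core and regulatory particle were next set against each other. Over the 14 core genes the median difference was 0.22, and over the 17 regulatory genes it was 0.27. The core median was 0.48 without salamander array 3, 0.10 without salamander array 1, 0.12 without salamander array 2, 0.14 without control array 2 and 0.08 without control array 5. Averaged per array over the core genes, the salamander arrays read 0.29, 0.40 and 0.07 and the controls from -0.36 to 0.08. Salamander arrays 1 and 2 were above every control and array 3 just below control array 4. Averaged over the regulatory genes, the salamander arrays read 0.43, 0.38 and -0.07 and the controls from -0.26 to 0.19, again with arrays 1 and 2 above every control. The core mean minus the regulatory mean was 0.00 ± 0.14 in the salamander group (SD, n = 3) and -0.04 ± 0.21 in the controls (SD, n = 6). The gap between these, 0.04, was smaller than either SD, and its sign turned with the setting, from -0.09 within the arrays of high spike-in readings to 0.23 within those of low ones. No p is given for these averages, since the members were chosen with results of these arrays known.

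**Figure D3:**
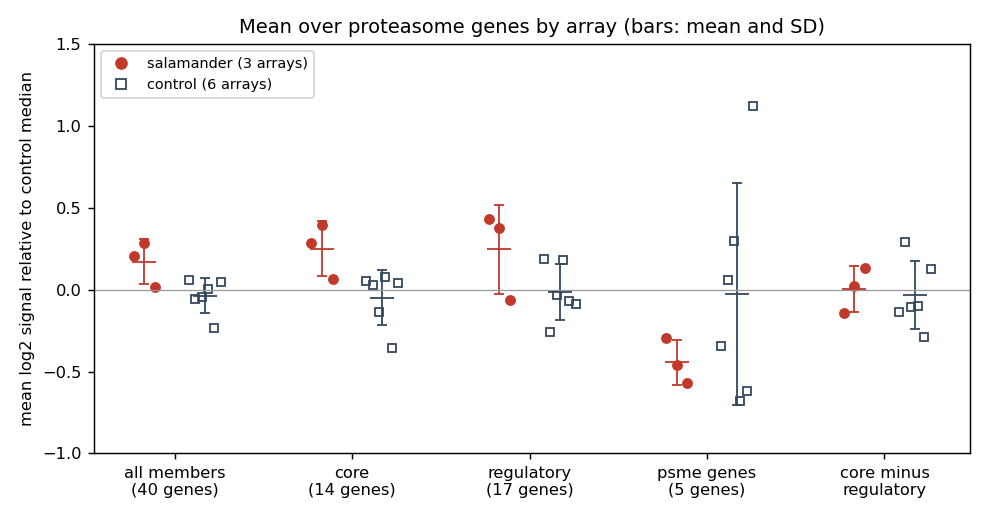
Mean log2 signal relative to the control median, averaged over the genes of each class in each array, and the core mean minus the regulatory mean. Filled circles are salamander arrays, open squares control arrays, and bars the group mean and SD. In the core and regulatory classes salamander arrays 1 and 2 lie above all controls and array 3 among them, and the difference between the classes overlaps fully between groups.

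Salamander array 3, with the lowest core and regulatory means of its group, is the only one of its group in the set of low spike-in readings. Within the high set the median difference over the 40 genes was 0.14, and within the low set, with salamander array 3 alone, it was -0.06. For the core genes the within-set medians were 0.15 and 0.20, and for the regulatory genes 0.27 and -0.05. With the set as a block the median over the 40 genes was 0.19 and 0 genes passed. The part of the spike-in level in these differences was not tested beyond these values.

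The positive median differed between dimmer and brighter probe sets. Of the 33 member probe sets with more than 1 weak mark, 25 were higher in the salamander group, with a median of 0.51, against a median of -0.02 over all 8164 such probe sets. Of the 26 brighter ones 16 were higher, with a median of 0.08, against 0.02 over all 7327. When genes were rebuilt from brighter probe sets alone, 23 proteasome genes were left, of which 14 were higher, and their median difference was 0.10. By family the medians were then -0.20 for psma (5 genes), 0.30 for psmb (6), -0.006 for psmc (3) and 0.27 for psmd (7). Of the psme genes only psme2 was left, at 0.19, and no psmg gene was.

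The spread between replicates was described beside that of all genes, without a test. The SD between replicates had a median of 0.65 over the 40 genes, and of 0.82 over all genes. Averaging probe sets lowers the SD, so genes with equal numbers of probe sets were set side by side. With a single probe set, the median was 0.87 over 24 proteasome genes and 0.95 over all 4463 genes. With 2 probe sets it was 0.58 over 13 and 0.67 over 1484, and with 3 it was 0.59 over 3 and 0.54 over 383. Counted gene by gene, 14 of 24, 10 of 13 and 1 of 3 proteasome genes lay below the median of their kind. At the level of probe sets the medians were 0.92 for the 59 members and 0.96 for all. Core and regulatory genes had medians of 0.60 and 0.61, and the psme genes one of 0.97. The steadiest members by this measure were psmb5, psmf1 and psmc5. An SD as low as that of psmb5 was found in 3.72% of genes with a single probe set, one as low as that of psmf1 in 5.2%, and one as low as that of psmc5 in 8.62% of genes with 3. At the other end stood psmd12, psmb7 and psma2, at 2.003, 1.32 and 1.30.

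**Figure D4:**
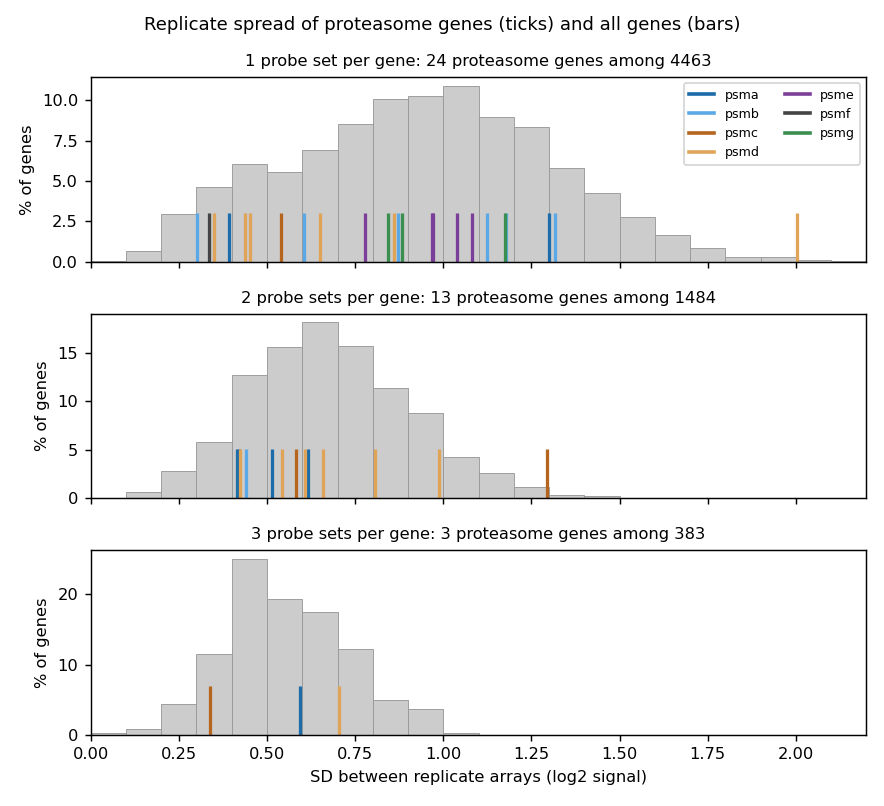
SD between replicate arrays on the log2 scale for all genes (grey bars, percent of genes per bin of 0.1) and for each proteasome gene (coloured ticks, whose height has no meaning), in panels by the number of probe sets averaged per gene. The ticks cover most of the range of the bars, from 0.30 for psmb5 to 2.003 for psmd12.

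Subunits of the proteasome are made in fixed proportions, so the arrays were also asked whether the members went up and down together. Deviations from the group means over the 9 arrays correlated by -0.01 on average over the 780 pairs of proteasome genes, and by -0.00 over all pairs of genes. Among core genes the mean was -0.04 over 91 pairs, among regulatory genes -0.02 over 136, and between the classes 0.02 over 238. These are descriptions over 9 arrays whose deviations share group means. Even different probe sets of the same gene correlated by -0.07 on average among the members and by 0.01 over all genes. The values therefore cannot decide whether the subunits went up and down together.

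Different probe sets of the same proteasome gene were compared in 22 pairs. In 14 of the pairs, or 63.6%, the differences between groups had the same sign, against 49.9% over 4219 such pairs in all genes. These shares are not alike in basis. Of the member probe sets 41 of 59 were higher, against 50.1% of all, which by itself raises the share of same signs. Their deviations correlated by -0.07 on average, and by 0.01 over all genes. For probe sets named for different Xenopus homeologs the mean was -0.18 over 14 pairs. For those named for the same homeolog, which can share probes, it was 0.12 over 8 pairs. The median gap between the differences of a pair was 0.47 on the log2 scale, and 0.68 over all genes. Whether each probe set reports the Rana transcript of the subunit it is named for was not shown by these comparisons, and this limits each gene's value given here.

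**Figure D5:**
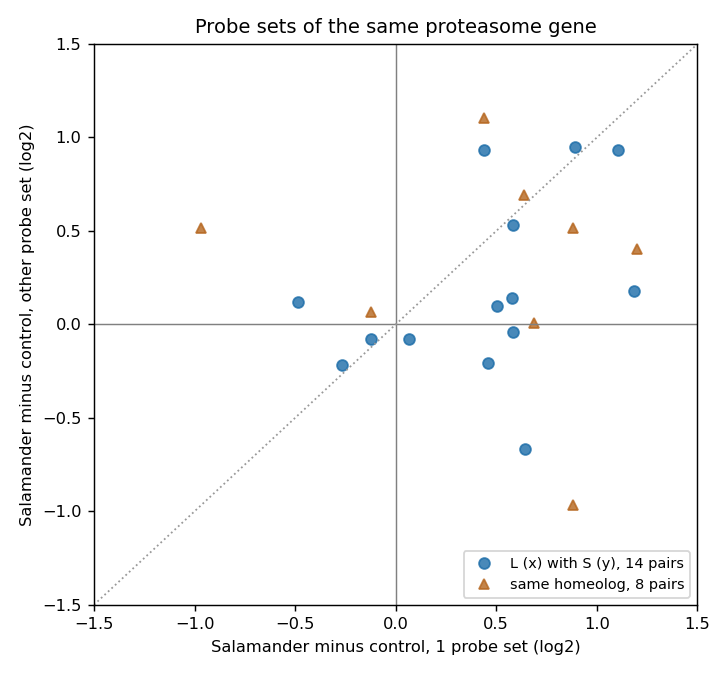
Salamander minus control difference on the log2 scale of 1 probe set against another of the same proteasome gene. Circles are pairs named for different Xenopus homeologs (.L on the x axis, .S on the y axis, 14 pairs). Triangles are pairs named for the same homeolog (8 pairs), and the dotted line marks equality. Points lie in opposite-sign quadrants in 8 of 22 pairs.

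The genes around the proteasome, which make, attach, read and remove ubiquitin, were described from a list of 77 genes, of which 51 were measured. In limma 0 of the 51 passed with adjustment over all genes. The salamander mean was higher in 24 and lower in 27 of them, and the median difference was -0.005. At an unadjusted p under 0.05 there was 1 higher gene and 3 lower ones, where 2.08% and 2.73% of all genes lay. The higher one was faf1, a cofactor of the segregase p97 (vcp), which pulls tagged proteins out of complexes. Its salamander arrays read 2.16, 0.62 and 2.85, all above the controls at -0.32 to 0.44, for a difference of 1.84 (SE 0.49) and an adjusted p of 0.687 in limma. The difference was 1.35 without salamander array 3 and 2.47 without salamander array 2. It rests on 1 probe set, which is not among the brighter ones. For vcp itself the difference was 0.26 (interval -0.77 to 1.30).

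On the lower side stood ube2m, ddi2 and ube2c. The gene ube2m, which encodes the conjugating enzyme for the ubiquitin-like protein of cullin ligases, read -2.003, -0.07 and -2.73 on the salamander arrays, against controls from -1.62 to 0.85. Its difference was -1.52 (SE 0.67), and it was -0.96 without salamander array 3 and -2.29 without salamander array 2. For ddi2, a shuttle protein that in mammals cleaves a transcription factor of proteasome genes, the salamander arrays read -1.66, -2.79 and -0.52 and the controls from -1.90 to 0.60. Its difference was -1.48 (SE 0.63), and -0.91 without salamander array 2. The gene for that transcription factor, nfe2l1, named here after its values were seen, was at -0.70 (interval -2.51 to 1.12). Its controls fell into a lower group, from -2.24 to -1.10, and an upper group, from 1.10 to 1.52. No control lay near their mean of -0.15. The listed gene nfe2l2 was at -0.06. For ube2c, a conjugating enzyme of mitosis, the salamander arrays read -1.45, -1.11 and -1.72, all below the other controls but not all below control array 2 at -1.54, with a difference of -1.09 (SE 0.50). From its brighter probe set alone the difference was -0.12, and with the replicate number as a block it was -0.52. That block draws the difference from arrays numbered 1 to 3 alone, since other numbers occur only in controls. The groups did not overlap in 2 of the 51 genes (3.92%, against 2.19% of all genes), faf1 and the cullin adaptor skp1, named after its values were seen, at 0.58 (SE 0.36). By role, the measured conjugating enzymes had 6 of 16 higher with a median of -0.18, and the ligases 6 of 7 with 0.49. The receptors and shuttles had 3 of 7 higher with -0.00, and the deubiquitinases 2 of 5 with -0.33. For p97 with its cofactors 3 of 6 were higher with -0.12. The activating enzymes had 1 of 3 higher with -0.005, and the other listed genes 3 of 7 with -0.02.

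Marker genes of tissues in or around the brain were read as a check, though without levels the dissected tissue itself could not be checked. The mean of 9 of 11 listed neuron genes lay between 0.51 and 0.96 on the salamander arrays and between -0.18 and 0.19 on the controls, and without ina, a gene known beforehand to be high in these arrays, between 0.18 and 0.77 and between -0.17 and 0.19. In this list 7 of the 9 were higher and 0 passed, as in 0% of all genes. An unadjusted p under 0.05 in limma was found for 2 of them (1 without ina), where 4.81% of all genes lay. The means of skeletal muscle genes (7 of 13 measured) were 0.11 to 0.25 on the salamander arrays and -0.34 to 0.12 on the controls, and those of red cell genes (6 of 9) were -0.57 to 0.03 and -0.67 to 0.71. Of the skin list 1 of 8 genes was measured and of the glia list 2 of 8, with 0 passing in either. The unadjusted limit was met by 1 red cell gene and by 0 genes of the muscle, skin and glia lists. The part of neuron or muscle content in the proteasome differences was not tested.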

How the data were processed

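The deposited table holds log2 values, which per the submitters' processing notes were computed with MAS5 (no version stated) and which the authors had centred, per probe set, on the median of the controls. The log2 scale and the centring were read from the values. That median was 0 for each probe set within 9.5e-07. Of 15611 probe sets, 120 Affymetrix controls were left out of tests, and 0 columns belonged to other samples. No source used here states a scaling between arrays before that step.

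Probe sets with a single symbol in the platform annotation were averaged per gene. limma 3.58.1 (lmFit and eBayes without trend, R 4.3.3, Python 3.11.15, matplotlib 3.10.9) was fitted to all 6485 genes and all 15491 probe sets, salamander minus control, with Benjamini-Hochberg adjustment. A value was marked as weak where its last digits are finer than single-precision numbers allow when both its signal and the median subtracted are 256 or more before the log. Probe sets with at most 1 weak mark are called brighter. Such marks miss part of the weak signals. A mark can stem from the array's signal or from the median subtracted, so it does not show that the signal of that array was weak.

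Replicates are numbered by the labels, which call them biological. The number of arrays limits the precision. Genes described in full were the 2 with the smallest p per family, any whose groups did not overlap, psmb5 to psmb7, the 3 with the smallest and the 3 with the largest replicate SD, those with probe sets opposed by more than 1 log2 unit, and, of the ubiquitin list, the 4 with the smallest p and ubb, ubc and vcp where measured. Other members are given by their difference. Members and lists were chosen with earlier results of these data known. Alternatives were leaving out arrays, no moderation, quantile normalization, blocks, the brighter or plain probe sets, probe set medians and psmb8.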

Additional observations from a re-analysis of the deposited data

Results flagged for a closer look

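Among 30 values examined in the 6 controls (the named genes and the class means per array), 1 had a control array far from the others, where chance gives about 1 in 20. In ddi2, control array 3 stood at -1.90, with the other controls between -0.26 and 0.60. Over all genes such an array was found in 7.91%, and in 2.5% of the proteasome genes.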

How the results depend on the processing

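Under every alternative with more than 1 array per group, 0 proteasome genes, 0 member probe sets where refitted, and 0 genes of the ubiquitin list passed. In these fits 0 of all genes passed as well, except without control array 3, where 1 gene did. The number with an unadjusted p under 0.05, 0 in the fit described, was 1 without moderation (psma4), 1 with the replicate block (psmd14), 2 within the high spike-in set (psmd8 and psmd14) and 0 to 2 with an array left out (psmd14 and psme3 without control array 5). Over all genes the share was 4.24% without moderation, 5.2% with the replicate block and 5.24% within the high set. It was 4.55% to 5.23% with an array left out. Genes with 2-fold excluded, 6 as described, numbered 0 with the replicate block and within either spike-in set, where fewer arrays or degrees of freedom were left, and 0 to 6 with an array left out. Of all genes, 0% had 2-fold excluded with the replicate block or within either set, and 1.09% to 5.6% with an array left out. Without moderation 8 of the 40 members had 2-fold excluded, against 13.8% of all genes. From brighter probe sets they were 5 of 23, against 16.9%. The median over the members was -0.0563 within the low spike-in set, 0.10 from brighter probe sets and 0.14 (without control array 5) to 0.32 with an array left out. The core median ran from 0.0798 without control array 5 to 0.48 without salamander array 3. The regulatory median was -0.047 and the core minus regulatory value 0.23 within the low set, where salamander array 3 stood alone. That value, 0.0385 as described, was -0.0896 within the high set, -0.0807 from brighter probe sets, -0.0137 with the replicate block and -0.0259 (without salamander array 3) to 0.1118 (without salamander array 1) with an array left out, moving over 1.5 times for 8 arrays and turning sign also without control array 5 (-0.0122).

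None of these single-gene signs was called. The difference of ube2c was -0.12 from brighter probe sets and -0.52 with the replicate block, and that of psmd14 turned to -0.77 within the low set. That of psme2 turned to -0.39 without salamander array 2 and to -1.03 within the low set. The replicate block draws each difference from arrays numbered 1 to 3 alone, since other numbers occur only in controls. With it psma2 was at -0.51, psma5 at -0.16, psmc5 at 0.22, psmd12 at -0.10 and psmf1 at -0.0492. With the spike-in block psmd12 was at -0.0025 and psmf1 at -0.0213. Within the high set psma2 was at -0.0235, psma5 at -0.14, psma7 at 0.0545, psmb5 at 0.14, psmb7 at 0.65, psmc5 at 0.0017 and psmg2 at -0.0309. Within the low set psma1 was at -0.21, psmc1 at -0.51, psmd12 at -1.14, psmd8 at -0.64 and psmf1 at -0.36. From brighter probe sets psma5 was at -0.23, and after quantile normalization psmb5 was at 0.0018. With an array left out the sign turned in 8 of the 20 named members, psma2 (-0.0527 to 1.13), psma5 (-0.0466 to 0.31), psma7 (-0.29 to 0.14), psmb5 (-0.16 to 0.0644), psmb7 (-0.79 to 0.68), psmc5 (-0.18 to 0.0602), psmd12 (-1.13 to 0.86) and psmf1 (-0.18 to 0.23), and in vcp (-0.0056 to 0.42). The causes were not tested.

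Replicate numbers 1 to 3 occur in both groups. Deviations of same-numbered arrays correlated over genes by 0.0047, 0.0317 and -0.0137, and those of differently numbered arrays by -0.0182 to 0.0153. Even probe sets of the same gene correlated by only 0.0088 over all genes. These values therefore cannot decide whether same-numbered arrays share more than a number. Counting in 7 probe sets that list both homeologs of a proteasome gene, chosen after the data were seen, gave 42 genes and a median of 0.24.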
